A study of Mus musculus with 48 samples.

Results

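Epidermal stem cells of old mice collected at ZT20 were compared with those collected at ZT8. These are 8 arrays of the 48 in the series, 4 from aged mice at ZT20 and 4 from aged mice at ZT8, taken by their labelled age and time. ZT (zeitgeber time) counts hours from lights on, so ZT8 lies in the light phase and ZT20 in the dark phase, opposite each other on the clock face. No lighting schedule was found in the labels.

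The series measured messenger RNA in epidermal stem cells (EpSCs) of female wild-type C57B6/J mice every 4 hours from ZT0 to ZT20, that is at 6 times, with 4 mice at each time and age. The aged mice were between 102 and 116 weeks old and the young mice 8 weeks old. The labels name no transgene and no treatment. Each array held RNA amplified from 25 ng through 17 cycles, and the values are log2 intensities after RMA normalisation, so a difference of 1 stands for a 2-fold difference in signal. The 12823 genes tested had 1 probe set each and a mean above that of the dimmest 25% of genes. Array values carry no count depth. Each group holds 4 mice, which the labels describe as separate animals. Standard errors (SE), intervals and p-values of the gene tests use a spread pooled over all 12 groups. They do not measure the spread of the mice compared alone.

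The circadian clock is a feedback loop of transcription factors. BMAL1 (Arntl) pairs with CLOCK or NPAS2 at E-boxes and switches on its own repressors, the period and cryptochrome genes, together with REV-ERB factors such as Nr1d2, which act at ROR elements to silence Arntl. Another layer, the D-box factors Dbp, Tef and Hlf and their competitor Nfil3, passes the rhythm on to output genes, and in skin the clock is known for timing division and stress defences of basal keratinocytes through the day.

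The 8 arrays were alike in their medians, which lay between 4.85 and 4.92. Pairwise Pearson correlations over genes lay between 0.9841 and 0.9962. ZT8 arrays correlated with their own group at 0.988 to 0.993 on average, and ZT20 arrays with theirs at 0.985 to 0.988. The ZT20 arrays correlated with the ZT8 arrays at 0.987 to 0.990. High-GC background ran from 5.37 to 6.93. The 3′ minus 5′ difference of the actin control probe sets averaged -0.20 at both times (exact two-sided permutation test, p = 1, n = 4 and 4, where the smallest p such a design allows is 0.0286). Markers of basal keratinocytes, among them the keratins Krt5 and Krt14 and the integrin Itga6, averaged 11.24 to 11.41 in every array. The bulge marker list averaged 6.49 to 7.15, with Krt15 (mean 11.97), Nfatc1 (9.44) and Sox9 (9.26) bright and Cd34 (3.37) and Lgr5 (3.83) under the dim limit of 3.96. The suprabasal list averaged 8.25 to 8.47, from Krt1 (11.68) and Krt10 (11.65) down to Ivl (6.45), Lor (6.45) and Dsc1 (4.79), with Flg (3.08) under the dim limit. Replicate 4 at ZT8 differed from the other ZT8 mice in glucocorticoid-induced genes, and changes of such genes are given with and without it. Replicate 2 at ZT20 also stood above the other ZT20 mice in the average of these genes (10.19 against at most 9.74). Endothelial, Merkel cell and mast cell lists averaged at most 4.16, 3.97 and 3.79. Other lists were brighter. Upper follicle and sebaceous gland averaged 7.69 to 8.22, from Plet1 (11.60) down to Elovl3 (3.78). Red blood cell averaged 6.67 to 6.97, from Hba-a2 (11.29) down to Alas2 (4.38). Fibroblast averaged 5.30 to 5.53, from Sparc (10.24) down to Col3a1 (3.34). In such bulk RNA, fewer cells of a type and less RNA per cell cannot be told apart.

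Few genes separated the 2 times in old cells. Of the 12823 genes, 14 passed the test (limma, Benjamini-Hochberg adjusted p under 0.05), 0.109% of those tested. The 4 that were higher at ZT20 make up 0.0312% and the 10 that were lower 0.078%. At an unadjusted p under 0.05 there were 647, with 158 higher and 489 lower. Under cyclic loess normalisation 14 genes were called too, 7 higher and 7 lower. Without replicate 1 or 3 at ZT8 there were 8 calls, and without replicate 2 at either time or replicate 3 at ZT20 there were 9. The values of the 4 ZT20 and 4 ZT8 mice did not overlap for 443 genes, 3.45% of all, and all 14 called genes were among them. Across all genes the median change, ZT20 minus ZT8, was -0.04, with 4777 genes higher and 8046 lower.

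Of the 21 genes in the clock lists (activators, repressors and D-box factors), 17 were measured and tested. Dbp and Nr1d2 fell and none rose by limma's adjusted p, with 3 higher and 6 lower at an unadjusted p under 0.05. The values of 8 of the 17 did not overlap between times, 5 of them lower at ZT20 and 3 higher. Among all 12823 genes 443 did not overlap, 341 lower and 102 higher. The median change of the 17 was -0.21.

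Promoter windows of 5 of these genes are shown, those of Tef, Ciart, Cry1 and Arntl because they hold an E-box or a ROR element. That of Dbp, the gene of largest change, holds neither. Whether these letters go with the changes was not tested. Each runs 250 bases before to 50 bases after an annotated start (RefSeq, GRCm38.p6), on the gene's strand. E-boxes (CACGTG) and ROR elements (TAGGTCA or TGGGTCA) found on either strand are in capitals.
Dbp, chr7:45704997-45705296, plus strand: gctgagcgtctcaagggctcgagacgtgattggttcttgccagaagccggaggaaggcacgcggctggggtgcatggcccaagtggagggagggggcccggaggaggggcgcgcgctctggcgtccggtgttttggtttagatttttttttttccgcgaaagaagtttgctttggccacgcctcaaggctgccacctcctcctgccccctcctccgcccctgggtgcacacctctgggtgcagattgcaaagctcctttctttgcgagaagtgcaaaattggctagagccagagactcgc
Tef, chr15:81802423-81802722, plus strand: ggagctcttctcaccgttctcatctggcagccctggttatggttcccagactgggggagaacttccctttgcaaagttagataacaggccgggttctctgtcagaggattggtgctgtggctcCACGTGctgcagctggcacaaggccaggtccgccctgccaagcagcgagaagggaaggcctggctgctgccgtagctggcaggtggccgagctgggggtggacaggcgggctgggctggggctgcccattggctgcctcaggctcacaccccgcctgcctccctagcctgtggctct
Ciart, chr3:95882179-95882478, minus strand: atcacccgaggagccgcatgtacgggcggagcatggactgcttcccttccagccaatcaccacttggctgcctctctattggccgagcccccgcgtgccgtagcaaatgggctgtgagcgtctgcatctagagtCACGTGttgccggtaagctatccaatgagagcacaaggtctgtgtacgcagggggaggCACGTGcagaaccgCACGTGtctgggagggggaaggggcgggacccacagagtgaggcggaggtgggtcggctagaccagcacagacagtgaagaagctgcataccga
Cry1, chr10:85185005-85185304, minus strand: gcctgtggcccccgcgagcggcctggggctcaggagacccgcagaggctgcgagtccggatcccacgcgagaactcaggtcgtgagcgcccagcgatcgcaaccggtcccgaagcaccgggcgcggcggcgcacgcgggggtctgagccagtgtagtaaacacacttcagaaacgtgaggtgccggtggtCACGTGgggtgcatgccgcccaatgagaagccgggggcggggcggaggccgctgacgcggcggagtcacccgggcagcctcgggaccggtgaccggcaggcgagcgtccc
Arntl, chr7:113207261-113207560, plus strand: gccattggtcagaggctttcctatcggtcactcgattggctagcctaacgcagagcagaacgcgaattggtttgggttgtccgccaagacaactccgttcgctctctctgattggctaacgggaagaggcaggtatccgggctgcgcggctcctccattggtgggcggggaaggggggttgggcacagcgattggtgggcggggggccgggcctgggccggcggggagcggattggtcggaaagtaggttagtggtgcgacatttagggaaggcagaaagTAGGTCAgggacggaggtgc

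Of the 17 tested clock genes, 15 had a window, some of them several, 20 windows in all. An E-box lay in 5 of the 20 windows, those of 4 genes, against 7.15% of all 32851 windows. Ciart held 3, starting at -116, -58 and -44 from the start site, Cry1 held 1 at -60 and Tef 1 at -127 in the window shown and 1 at -138 in its other window, and Per1 held 1 at -166. A ROR element was found in 2 windows, for Arntl 30 bases after the start and for Nfil3 at -12, against 6.45% of all windows. The D-box (TTATGTAA or TTACGTAA) occurred in 1 window, that of Per3, at -205 and -158, against 1.06% of all windows. The Dbp window and the single Nr1d2 window held none of these letters. A match describes the letters of the window and is not evidence of a bound site, and the motifs do not overlap each other in the windows shown.

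Dbp, the D-box activator, had the largest ZT20 minus ZT8 change of all genes tested. Its log2 values were 7.76, 7.88, 7.24 and 7.96 in the 4 mice at ZT8, and 5.33, 4.72, 5.11 and 5.94 in the 4 at ZT20. It fell by 2.43 on the log2 scale (SE 0.24, limma adjusted p = 6.41e-09), a 5.4-fold lower signal. The lowest ZT8 mouse was still above the highest ZT20 mouse. Over the 6 times its mean in old cells was lowest at ZT0 (4.78) and highest at ZT12 (8.38).

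Nr1d2 encodes the haem-binding repressor REV-ERB beta. It read 9.24, 9.27, 9.13 and 9.19 at ZT8 and 7.68, 7.52, 7.40 and 7.83 at ZT20. The fall was 1.60 (SE 0.16, adjusted p = 6.41e-09), 3.03-fold, and the ZT8 mice were nearly identical to each other. Its mean in old cells was 7.49 at ZT0, near the ZT20 level of 7.61.

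Tef and Ciart lay lower at ZT20 without passing the test. Tef, a D-box factor related to Dbp, read 9.10, 9.41, 8.83 and 9.36 at ZT8 against 8.57, 8.34, 8.29 and 8.81 at ZT20, a difference of -0.67 (SE 0.15, adjusted p = 0.0518). Ciart, a repressor of BMAL1 activity, read 6.09, 6.06, 6.03 and 6.74 at ZT8 against 5.90, 5.39, 5.31 and 5.91 at ZT20, a difference of -0.60 (SE 0.15, adjusted p = 0.114). In both genes all ZT20 values lay under all ZT8 values, although for Tef the gap between the groups was narrow. Tef passed in 6 of 19 alternative settings and Ciart in none.

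Cry1, the cryptochrome that represses late in the cycle, pointed the other way. Its values were 5.62, 5.18, 5.74 and 5.87 at ZT8 and 6.66, 6.75, 7.11 and 6.36 at ZT20, a difference of 1.12 (SE 0.25, adjusted p = 0.0502). The groups did not overlap. Cry1 passed in 7 of 19 alternative settings. Cry2 differed by -0.42 (SE 0.19, adjusted p = 0.919), so that the 2 cryptochromes had opposite signs, neither past the test in the main fit.

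Among the activators, Arntl read 8.33, 8.10, 8.37 and 7.45 at ZT8 and 9.08, 9.31, 9.12 and 8.44 at ZT20. The difference was 0.92 (SE 0.35, adjusted p = 0.714), and every ZT20 value exceeded every ZT8 value. Npas2 read 6.93, 6.71, 6.73 and 6.92 at ZT8 and 7.59, 7.22, 7.38 and 6.94 at ZT20, a difference of 0.46 (SE 0.13, adjusted p = 0.25), with the lowest ZT20 mouse level with the top of ZT8. The other, dimmer Npas2 probe set differed by 1.62, so the size depends on the probe set. Npas2 passed in 2 of 19 alternative settings, with changes from 0.35 to 1.04 across them. Arntl2, a paralogue of Arntl, differed by -0.54 (SE 0.19, adjusted p = 0.593).

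None of the period genes passed the test. Per1 differed by -0.21 (SE 0.18), Per2 by 0.06 (SE 0.21) and Per3 by -0.59 (SE 0.35), each with an adjusted p of 0.999. Per3 was divided among the ZT20 mice, with 6.46 and 6.39 in replicates 1 and 2 against 7.23 and 8.09 in replicates 3 and 4. Its mean in old cells peaked at ZT12 (9.02) and was lowest at ZT0 (5.03), so ZT8 (7.63) and ZT20 (7.04) both lie on the flanks. Clock (0.14), Rora (-0.02), Hlf (-0.02), Nfil3 (0.24) and Bhlhe40 (-0.28) gave differences with an adjusted p of 0.999.

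**Figure D1:**
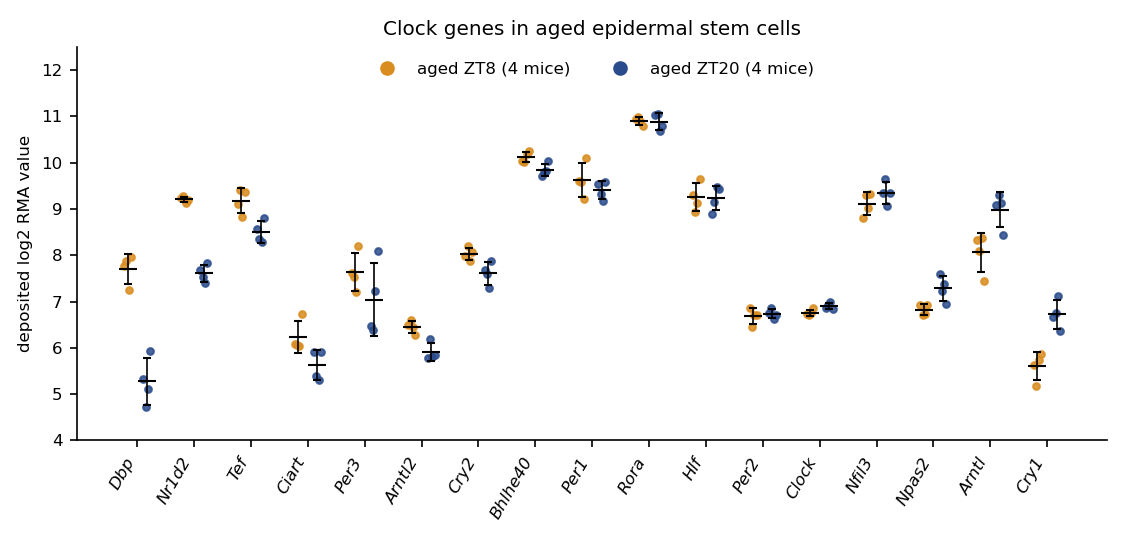
Deposited log2 RMA values (vertical axis) of the 17 tested clock genes (horizontal axis), ordered by the ZT20 minus ZT8 difference, in aged cells at ZT8 (orange) and ZT20 (blue). Each point is 1 mouse, and the bars show the mean and SD of 4 mice. Dbp and Nr1d2 stand apart at the left with no overlap, and Cry1 and Arntl are higher at ZT20 at the right.

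Outside the clock, 8 genes fell at ZT20. Ccnd2, cyclin D2, which drives passage through G1, read 11.68, 11.60, 11.61 and 11.65 at ZT8 and 10.99, 10.94, 11.09 and 11.24 at ZT20. It fell by 0.57 (SE 0.10, adjusted p = 0.00331), 1.48-fold. All 6 of its probe sets were lower at ZT20, by between -0.42 and -0.60, without overlap in any. Its mean in old cells was highest at ZT8 (11.63) among the 6 times.

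Man1c1, a mannosidase that trims N-glycans in the Golgi, read 10.14, 10.08, 10.02 and 10.41 at ZT8 and 9.26, 9.33, 9.58 and 9.70 at ZT20. It fell by 0.69 (SE 0.12, adjusted p = 0.00149). Apoe, the lipid carrier apolipoprotein E, read 11.79, 11.93, 11.77 and 11.83 at ZT8 and 11.54, 10.95, 10.80 and 11.39 at ZT20, and fell by 0.66 (SE 0.13, adjusted p = 0.0155). For both genes the ZT20 mice all lay below the ZT8 mice, and for Apoe they were far more scattered (SD 0.35 against 0.07).

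Ngfr, the p75 neurotrophin receptor, read 7.80, 8.11, 7.79 and 8.25 at ZT8 and 7.20, 7.08, 7.19 and 7.50 at ZT20, a fall of 0.74 (SE 0.17, adjusted p = 0.0493). Kifc3, a minus-end-directed kinesin, fell by 0.72 (SE 0.15, adjusted p = 0.0365) from between 7.17 and 7.34 to between 6.42 and 6.75. Fhod3, a formin that assembles actin filaments, was dim and fell by 0.87 (SE 0.19, adjusted p = 0.0375) from between 5.40 and 6.14 to between 4.64 and 4.96. These 3 genes had their ZT20 values wholly under those of ZT8.

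Mab21l4 fell by 0.75 (SE 0.16, adjusted p = 0.0455), from between 7.90 and 8.07 to between 6.73 and 7.71, with the ZT20 mice widely spread. Aldh4a1, a mitochondrial enzyme of proline breakdown, fell by 0.47 (SE 0.10, adjusted p = 0.0365), from between 6.66 and 6.92 to between 6.30 and 6.50, the smallest of the 14 called changes. The calls of Fhod3, Mab21l4 and Ngfr passed in 7 alternative settings each, of 18 for Fhod3 and 19 for the other two, and those of Kifc3 and Aldh4a1 in 10 of 19. Ccnd2 and Man1c1 missed the threshold in 1 of 19, the fit on the 8 arrays alone (adjusted p = 0.071 and 0.108), and Apoe passed in 14.

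The 4 genes that rose were Ttc9, H2bc22, Hadhb and Angptl4. Ttc9, a tetratricopeptide repeat protein, read 5.67, 5.61, 5.72 and 5.76 at ZT8 and 6.83, 7.07, 6.63 and 6.89 at ZT20. It rose by 1.17 (SE 0.19, adjusted p = 8.78e-04), 2.25-fold. The ZT8 mice were within a narrow band and the ZT20 mice well above it, and the highest mean among the 6 times in old cells came next, at ZT0 (7.51). Its call passed in all 19 alternative settings, as did those of Dbp, Nr1d2 and H2bc22.

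H2bc22, a replication-linked type of histone H2B gene, read 10.84, 11.05, 10.94 and 10.91 at ZT8 and 11.75, 11.62, 11.69 and 11.69 at ZT20, and rose by 0.75 (SE 0.14, adjusted p = 0.00776). Histone genes are near-identical copies, so probe sets may read several of them. The H4 gene H4c8 went from between 10.26 and 10.49 to between 10.89 and 11.09, a difference of 0.61 that missed the threshold (SE 0.14, adjusted p = 0.0502). For both histone genes the times did not overlap.

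Hadhb, the beta subunit of the mitochondrial trifunctional protein of fatty acid oxidation, read 8.96, 9.01, 8.98 and 9.20 at ZT8 and 9.49, 9.44, 9.71 and 9.74 at ZT20, and rose by 0.56 (SE 0.12, adjusted p = 0.0365). Angptl4, a secreted inhibitor of lipoprotein lipase, read 7.81, 7.35, 7.62 and 8.39 at ZT8 and 8.86, 8.86, 9.30 and 9.02 at ZT20, and rose by 1.22 (SE 0.27, adjusted p = 0.0493), 2.33-fold. The ZT20 mice were above all ZT8 mice in both. Hadhb passed in 12 and Angptl4 in 6 of 19 alternative settings.

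The other genes of smallest p among those higher at ZT20 did not pass the test. Il22ra2, the soluble decoy receptor of interleukin 22, differed by 1.22 (SE 0.30, adjusted p = 0.092), Apcdd1, a Wnt inhibitor at the cell membrane, by 0.51 (SE 0.12, adjusted p = 0.092), Cdca5, which holds sister chromatids together, by 0.88 (SE 0.22, adjusted p = 0.104), and Ide, the insulin-degrading enzyme, by 0.78 (SE 0.19, adjusted p = 0.114). In each of these 4 genes the ZT20 mice lay above all ZT8 mice.

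**Figure D2:**
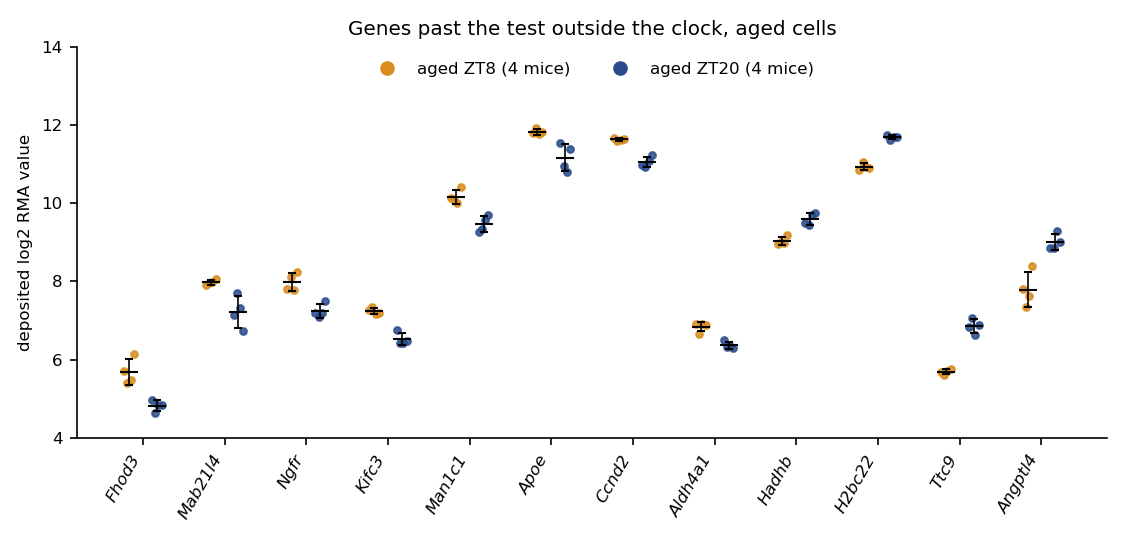
Deposited log2 RMA values (vertical axis) of the 12 genes outside the clock lists that passed the test in aged cells (horizontal axis), at ZT8 (orange) and ZT20 (blue). Each point is 1 mouse, with the mean and SD of 4 mice. The first 8 genes are lower and the last 4 higher at ZT20, and in none do the groups overlap.

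Young cells give the measure of how far the old cells' pattern is shared. The same contrast in the 8 young arrays at these times called 124 genes, 0.967% of those tested, 90 higher and 34 lower at ZT20. Without young replicate 2 or 4 at ZT20 the count was 59 or 72, and without replicate 3 at ZT8 it was 52. The young and aged contrasts share no arrays. Of the 14 genes called in old cells, 5 were also called in young cells (35.7% of the 14 and 4.03% of the 124), all in the same direction: Dbp, Nr1d2, Ccnd2, Ttc9 and H2bc22. Of the other 9, all but Angptl4 had the same sign in young cells without passing there. Conversely, 110 of the 124 young-called genes had the same sign in old cells, with a median change in the young direction of 0.27 in old and 0.85 in young cells, where the young value is the one that chose them. Of all 12823 genes, 8046 were lower at ZT20 in old cells and 6826 higher in young cells. How many had the same sign at both ages was not counted.

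Whether the 2 ages differ in this contrast was tested directly, as the aged change minus the young change. That difference passed the test for 5 genes, 0.039% of those tested. Nr1d2 fell by 1.60 in old cells and fell by 2.28 in young cells, a difference of 0.68 (95% interval 0.24 to 1.13, adjusted p = 0.985). Dbp gave 0.48 (-0.21 to 1.17, adjusted p = 1), and Cry1 gave -0.02 (-0.74 to 0.69, adjusted p = 1). These intervals are not adjusted for the number of genes. The clock repressor Per1, which passed in young cells (-1.09, adjusted p = 4.82e-04), differed between the ages by 0.87 (0.35 to 1.40, adjusted p = 0.94). Arntl2 had the opposite sign in young cells (0.27), a difference of -0.81 (-1.35 to -0.27, adjusted p = 0.985). None of the 17 clock genes passed the limma test between ages, with 3 at an unadjusted p under 0.05, and the intervals leave room for sizeable differences.

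The 8 remaining called genes of the same sign in both ages and not called in young cells also did not pass the test between ages. Apoe differed by -0.56 (-0.93 to -0.18, adjusted p = 0.985), Ngfr by -0.57 (-1.04 to -0.10, adjusted p = 1) and Hadhb by 0.47 (0.13 to 0.80, adjusted p = 1). In young cells their own changes were -0.11, -0.17 and 0.09. Being called in old cells only is therefore not a shown difference for these genes.

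**Figure D3:**
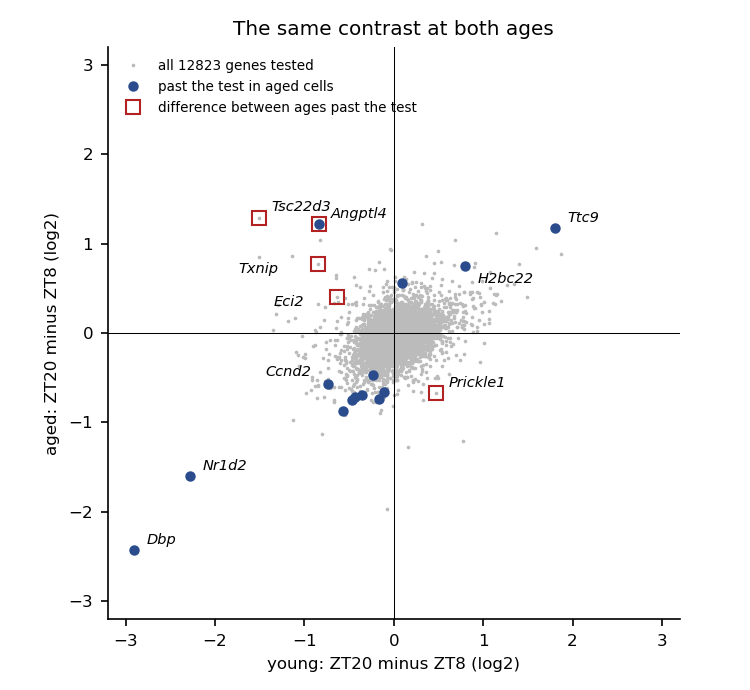
ZT20 minus ZT8 change (log2) in young cells (horizontal axis) and aged cells (vertical axis), 1 point a gene for all 12823 genes tested. Blue points passed the test in aged cells, and red squares mark the 5 genes whose change differed between ages. Dbp and Nr1d2 are low at both ages and Ttc9 and H2bc22 high, while the red squares lie in the quadrants of opposite sign.

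The 5 genes that passed between ages, Angptl4, Txnip, Tsc22d3, Eci2 and Prickle1, all had opposite signs in old and young cells. Tsc22d3 encodes GILZ, a leucine zipper protein induced by glucocorticoids. In old cells it read 7.31, 7.61, 6.92 and 9.50 at ZT8 and 8.99, 10.28, 8.40 and 8.84 at ZT20, a difference of 1.29 (SE 0.38, adjusted p = 0.299). In young cells it read 9.62, 10.01, 9.62 and 10.04 at ZT8 and 7.47, 8.45, 8.66 and 8.65 at ZT20, a fall of 1.51 (SE 0.38, adjusted p = 0.0322). The old mice overlap because replicate 4 at ZT8 is as high as the ZT20 mice, and the young mice do not overlap. The aged change exceeded the young change by 2.81 (1.72 to 3.89, adjusted p = 0.0216), and without that mouse by 3.36 (adjusted p = 1.30e-04). That mouse was singled out because its values run against this difference, so the smaller p without it adds no support. Without replicate 2 at aged ZT20 (10.28), the high mouse there, the difference did not pass. The interval uses the pooled spread, while the SDs at ZT8 and ZT20 were 1.15 and 0.81 in old and 0.23 and 0.57 in young mice. With only the 16 arrays compared, limma's adjusted p was 0.268.

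Txnip, the thioredoxin-interacting protein that restrains glucose uptake, read 10.47, 10.58, 10.15 and 11.31 at ZT8 and 11.40, 12.05, 10.82 and 11.32 at ZT20 in old cells, a difference of 0.77 (SE 0.21, adjusted p = 0.177). In young cells it fell by 0.85 (SE 0.21, adjusted p = 0.0252). The change differed between ages by 1.62 (1.03 to 2.21, adjusted p = 0.02), and without replicate 4 at aged ZT8 by 1.84 (adjusted p = 4.06e-04). As with Tsc22d3, replicate 4 at ZT8 was the high mouse among its group. Replicate 2 was the high mouse at ZT20 (12.05), and without it the aged change had a limma adjusted p of 0.714.

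Angptl4 rose in old cells, as given above, and in young cells read 7.72, 9.41, 8.71 and 8.57 at ZT8 and 8.13, 7.12, 7.91 and 7.90 at ZT20, a difference of -0.84 (SE 0.27, adjusted p = 0.174). The ages differed by 2.06 (1.29 to 2.83, adjusted p = 0.02). Eci2, an isomerase needed to oxidise unsaturated fatty acids, differed by 0.40 in old cells (SE 0.14, adjusted p = 0.659) and fell by 0.64 in young cells (SE 0.14, adjusted p = 0.0142), and the ages differed by 1.03 (0.62 to 1.45, adjusted p = 0.0305). Young mice at ZT20 were tightly grouped for Eci2, from 7.94 to 8.04.

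Prickle1, a component of planar cell polarity, was the one gene with a negative difference between ages. It read 8.42, 8.50, 8.55 and 8.22 at ZT8 and 7.60, 7.90, 7.62 and 7.89 at ZT20 in old cells, a difference of -0.67 (SE 0.16, adjusted p = 0.092), with no overlap. In young cells the difference was 0.47 (SE 0.16, adjusted p = 0.233). The ages differed by -1.14 (-1.60 to -0.68, adjusted p = 0.0309).

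These calls between ages rest on few mice. None of the 5 passed when the fit used only the 16 arrays compared, or when it took the replicate number as a block. The same held when replicate 2 at aged ZT20, replicates 1, 2 or 3 at aged ZT8, replicate 2 at young ZT20 or replicate 2 at young ZT8 was left out. Without replicate 1 at young ZT20 there was 1 call, and without replicate 4 at young ZT20 or replicate 3 at young ZT8 there were 3. Without replicate 4 at aged ZT20 there were 8, and without replicate 4 at aged ZT8 there were 11, all 5 among them. The sign of each of the 5 differences was the same in every setting tried.

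Over the full series of times, the order of the ages at ZT8 was the reverse of that at ZT20 for all 5 genes. The mean of Txnip was 10.63 in old and 11.86 in young cells at ZT8, against 11.40 and 11.02 at ZT20. For Tsc22d3 the means were 7.84 and 9.82 at ZT8 and 9.13 and 8.31 at ZT20. In old cells Tsc22d3, Txnip and Eci2 all had a first high at ZT4 (9.47, 11.82 and 8.93) and another at ZT16 (9.91, 11.82 and 8.89) with ZT8 lower between them. Eci2 had this shape in young cells too (8.99 at ZT4, 8.63 at ZT8 and 9.36 at ZT16). Young Tsc22d3 (8.40 and 9.82) and Txnip (11.67 and 11.86) were instead higher at ZT8 than at ZT4. These courses are given as a description.

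**Figure D4:**
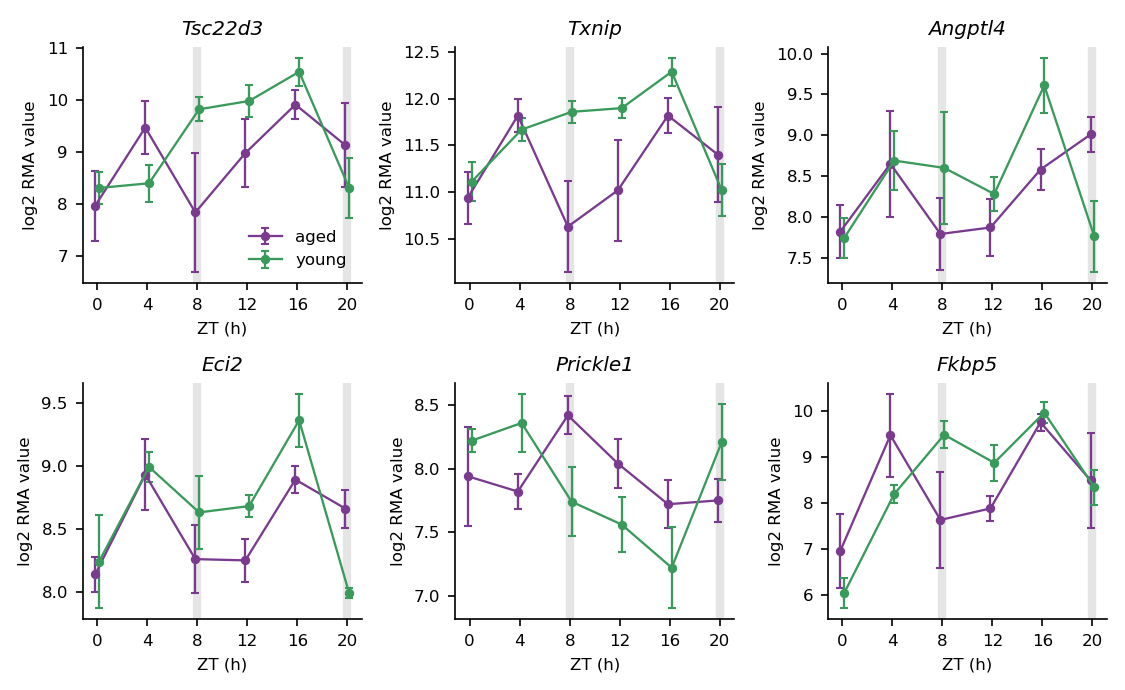
Mean log2 RMA value with SD (vertical axis, 4 mice a point) against ZT in hours (horizontal axis) for the 5 genes whose change differed between ages and for Fkbp5, chosen after its values were seen, in aged (purple) and young (green) cells. Grey bands mark ZT8 and ZT20. Aged means are below young means at ZT8 for all but Prickle1, and at or above them at ZT20 for all but Prickle1.

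Tsc22d3 and Angptl4 belong to a list of 17 glucocorticoid-induced genes, of which 16 were tested. Angptl4 rose and none fell in old cells, against 4 and 10 of all 12823 genes. The list's median change was 0.03 in old cells against -0.04 for all genes, and -0.58 in young cells against 0.01 for all genes. Averaged over the 16 genes, the level in old cells was 9.44, 9.41, 9.29 and 9.99 at ZT8 and 9.74, 10.19, 9.69 and 9.54 at ZT20. In young cells it was 9.97, 10.09, 10.11 and 10.08 at ZT8 and 9.41, 9.43, 9.59 and 9.62 at ZT20. Replicate 4 was high among old ZT8 mice, level with the young ZT8 mice, and the other old ZT8 mice were level with young ZT20 mice. Replicate 2 was high among old ZT20 mice.

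The same list in young cells had 5 of 16 genes that fell (Tsc22d3, Pdk4, Per1, Klf9 and Ddit4, the last pair named after their values were seen) and none rose. Over all 12823 genes, 34 fell and 90 rose in young cells. Pdk4, the kinase that shuts off pyruvate dehydrogenase in fasting, differed by 0.85 in old cells (SE 0.36, adjusted p = 0.883) and fell by 1.51 in young cells (SE 0.36, adjusted p = 0.0203). The difference between ages was 2.36 (1.33 to 3.39, adjusted p = 0.0621), and it passed without replicate 4 at aged ZT8 (2.55, adjusted p = 0.0231). Fkbp5, a glucocorticoid receptor co-chaperone, read 7.21, 7.07, 7.07 and 9.18 at ZT8 and 8.74, 9.70, 8.31 and 7.22 at ZT20 in old cells. Its groups overlapped through replicate 4 at ZT8 (9.18). Replicate 4 at ZT20 (7.22) was only just above the other ZT8 mice (at most 7.21). The difference between ages was 2.00 (0.88 to 3.13, adjusted p = 0.747) with all mice and 2.52 (adjusted p = 0.0195) without replicate 4 at aged ZT8.

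Leaving out replicate 4 at aged ZT8 moved the aged contrast itself. This array was chosen by its values, so smaller p-values without it, here and above, add no support. It then called 20 genes, 12 higher and 8 lower. Tsc22d3 (1.85, adjusted p = 0.00902) and Txnip (1.00, adjusted p = 0.021) were among the 12, as were Il22ra2, Cry1 (1.21, adjusted p = 0.0455) and Apcdd1 (0.59, adjusted p = 0.0385). Between ages the differences without it were 2.26 for Angptl4 (adjusted p = 0.00316), 1.17 for Eci2 (adjusted p = 0.00316) and -1.21 for Prickle1 (adjusted p = 0.015). The glucocorticoid list's median stayed at 0.03. On that array Il22ra2 and Ciart also lay apart from the other ZT8 mice (7.96 against at most 6.88, and 6.74 against at most 6.09). The 3′ minus 5′ difference of its actin probe sets was -0.28, the lowest of the 8, its high-GC background was 6.93, the highest, and its array weight of 0.579 was the lowest of the 8. Their part in the result was not tested.

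Genes of fasting and the switch to fat as fuel overlapped that list in Angptl4 and Pdk4. Of 20 genes, 16 were tested, 1 rose and none fell in old cells, against 4 and 10 of all 12823 genes. The median change was 0.17 in old and -0.20 in young cells. Acadl, a dehydrogenase of long-chain fatty acids, went from between 8.93 and 9.05 to between 9.18 and 9.37, a difference of 0.26 that missed the threshold (SE 0.10, adjusted p = 0.711). The list's 3 genes with no overlap between times were all higher at ZT20, against 102 higher and 341 lower among all 12823 genes.

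No gene of G2 and mitosis passed the limma test in old cells, of 25 tested, and 1 was higher at an unadjusted p under 0.05. The median change was 0.07, against 0.67 in young cells, where 10 rose, beside 90 of all 12823 genes. Top2a, the topoisomerase that untangles chromosomes, read 7.07, 7.25, 7.23 and 6.93 at ZT8 and 7.38, 7.77, 7.53 and 7.52 at ZT20 in old cells, a difference of 0.43 (SE 0.19, adjusted p = 0.905). In young cells it rose by 1.14 (SE 0.19, adjusted p = 4.68e-04). The difference between ages was -0.71 (-1.25 to -0.16, adjusted p = 1). None of the 25 passed the test between ages, while 14 had an unadjusted p under 0.05, all with a lower ZT20 minus ZT8 change in old than in young cells. Over all 12823 genes that count was 451, of which 339 were lower in old cells.

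Averaged over the 25 genes, old cells read 6.65, 6.95, 6.75 and 6.71 at ZT8 and 6.71, 7.01, 6.86 and 6.66 at ZT20, which overlap. Young cells read 6.57, 6.27, 6.11 and 6.46 at ZT8 and 6.99, 7.11, 6.93 and 7.13 at ZT20, which do not. At ZT8 every old mouse lay above every young mouse, and at ZT20 the ages overlapped. Of 28 genes of S phase tested, none passed the limma test in old cells (1 higher and 2 lower at an unadjusted p under 0.05), and the median was -0.03 (0.14 in young cells).

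**Figure D5:**
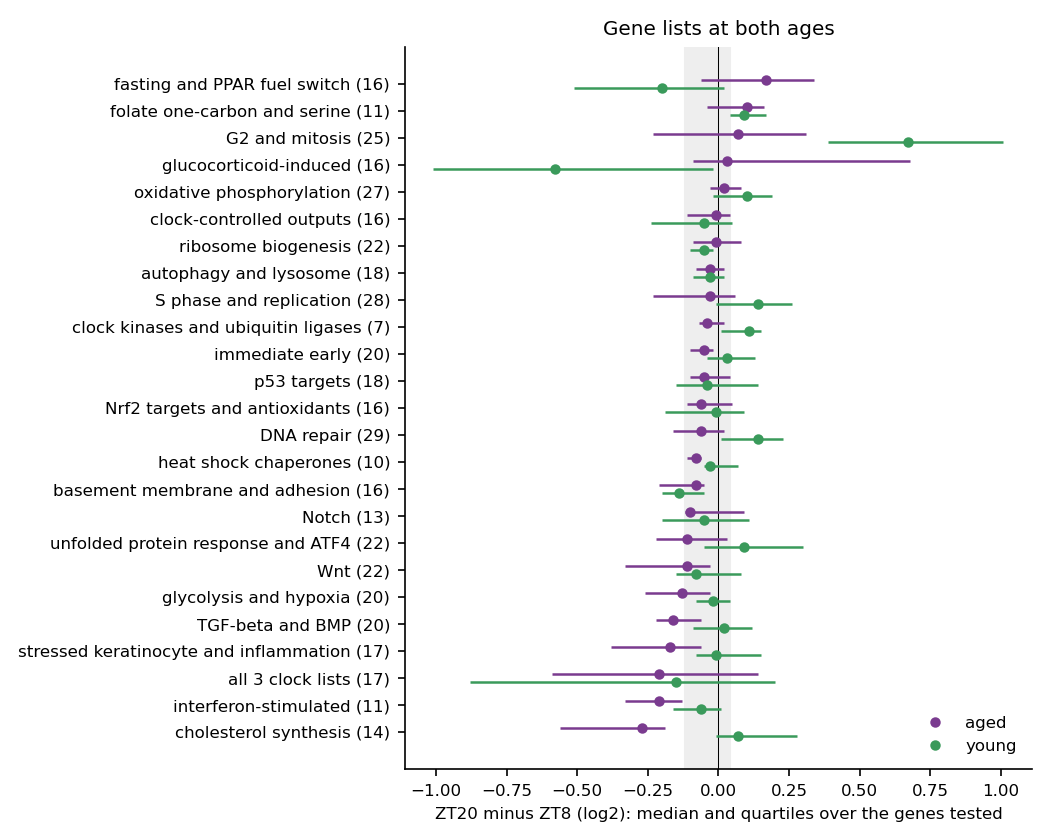
Median (point) and quartiles (line) of the ZT20 minus ZT8 change (log2, horizontal axis) over the tested genes of each list (vertical axis, number tested in brackets), in aged (purple) and young (green) cells. The grey band spans the quartiles over all genes tested in aged cells. The glucocorticoid, fasting and mitosis lists have medians of opposite sign or unlike size at the 2 ages, with values of 0.03, 0.17 and 0.07 in aged and -0.58, -0.20 and 0.67 in young cells.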

How the data were processed

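Epidermal stem cells were measured on 48 single-colour Affymetrix arrays, 4 mice in each of 12 groups of age and time. The values deposited by the authors are log2 intensities made with RMA, per the submitters' processing notes, and whether all arrays were normalised in 1 run is not given in the sources used here. RMA forces similar distributions on the arrays, so a shift of most genes one way would be hidden.

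Of 45141 probe sets, 28898 named 1 gene symbol, 551 several and 15692 none. The probe set of highest mean stood for each of 17097 genes, and genes in the lower 25% (mean under 3.96) were left out. A model of the 12 groups was fitted with limma 3.58.1 in R 4.3.3 (36 residual degrees of freedom, checked on simulated data), with p-values adjusted over all 12823 genes by Benjamini-Hochberg and 0.05 as threshold. Arrays were compared by exact permutation tests. Genes named are the clock lists, called genes with no overlap (up to 15 each way, or the 10 of smallest p where under 5 were called), the 5 of smallest p between ages and up to 3 of each of 42 lists. Members and lists were chosen with earlier results of these data known. Promoter windows came from RefSeq.

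Alternatives changed the dim filter, probe set rule, normalisation, array weights, variance model, block, arrays fitted and fold threshold, and left out each array. Replicate numbers were not treated as pairs in the main fit.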

Additional observations from a re-analysis of the deposited data

Results flagged for a closer look

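In 6 of 76 groups of 4 arrays examined (38 genes at each time), 1 mouse lay far from the other 3, where chance alone flags about 1 group in 20. At aged ZT8, replicate 4 was the highest for Ciart (6.74, the next at 6.09) and for Il22ra2 (7.96, the next at 6.88), and replicate 2 was the lowest for Aldh4a1 (6.66, the next at 6.89). At aged ZT20, replicate 1 was the highest for Kifc3 (6.75, the next at 6.47), replicate 2 the highest for Arntl2 (6.19, the next at 5.85), and replicate 3 the lowest for Ide (9.13, the next at 9.87).

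The ZT20 minus ZT8 change differed between ages in the limma test of the difference for 5 genes. The aged change minus the young change was 2.81 for Tsc22d3, 2.06 for Angptl4, 1.62 for Txnip, 1.03 for Eci2 and -1.14 for Prickle1, on the log2 scale. Across 26 alternative settings the difference passed the threshold in 17 for Tsc22d3, Angptl4 and Txnip, in 15 for Eci2 and in 11 for Prickle1.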

How the results depend on the processing

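Dbp, Nr1d2, Ttc9 and H2bc22 passed in all 19 alternatives of the aged contrast, and no gene named changed sign where it was called. The 14 calls became 64 with array weights (25 higher and 39 lower), 22 with the mean of all probe sets (7 higher), 7 with arrays centred on their median (2 higher and 5 lower) and 7 with only the 8 arrays compared (4 lower). The 4 higher calls became 7 with cyclic loess and 7 with a trended, robust variance. Leaving out 1 array at a time gave 8 to 20 calls, 2 to 12 higher and 6 to 9 lower, with the most calls without replicate 4 at aged ZT8. The 124 young calls became 294 with array weights, 189 with only the 8 young arrays compared, and 52 to 114 with 1 array left out. The 5 differences between ages became 31 with array weights, 9 with cyclic loess, 0 with only the arrays compared, and 0 to 11 with 1 array left out. The causes were not tested. The replicate block gave 14 aged calls and 0 differences between ages. By limma's unadjusted p under 0.05 the differences between ages numbered 436 with the replicate block and 602 with only the arrays compared, against 451. Same-numbered mice at ZT8 and ZT20 correlated in their deviations by 0.244, 0.004, 0.247 and 0.377, and 3 of 4 were closest to their own number. Leaving out the 4 arrays of lowest weight, none of them among the 8, was chosen after seeing the data and gave 19 calls. Dim genes such as Fhod3 lie near the background, which limits their fold.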

Other observations

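Genes of cholesterol synthesis were lower at ZT20 in old cells without any of 14 passing the test (limma, 5 lower and none higher at an unadjusted p under 0.05). The median change was -0.27, against -0.04 for all genes, and 12 of 14 were lower. Over all 12823 genes 8046 were lower, 489 of them at an unadjusted p under 0.05. Averaged over the 14 genes, the ZT8 mice read 7.48, 7.13, 7.42 and 7.14 and the ZT20 mice 6.84, 6.97, 6.95 and 7.03, so every ZT20 mouse was below every ZT8 mouse in the average, while none of the 14 single genes was free of overlap. Cyp51, the lanosterol demethylase, differed by -0.55 (SE 0.19, limma adjusted p = 0.574). Idi1, the isopentenyl diphosphate isomerase, read 9.40, 8.61, 9.54 and 8.48 at ZT8 and 8.13, 8.28, 8.65 and 8.32 at ZT20, a difference of -0.66 (SE 0.23, adjusted p = 0.593). The ZT8 mice fell into a high and a low pair for Idi1, and the low pair overlapped the ZT20 mice. In young cells the list's median was 0.07.

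Of 22 Wnt pathway genes tested, none passed (limma, 7 lower at an unadjusted p under 0.05), 17 were lower at ZT20 (8046 of 12823 over all genes) and the median was -0.11. Wls, which carries Wnt ligands to the cell surface, read 10.32, 10.43, 10.31 and 10.57 at ZT8 and 10.18, 10.25, 10.07 and 9.92 at ZT20, a difference of -0.30 (SE 0.08, adjusted p = 0.177), with no overlap. None of 20 genes of glycolysis and hypoxia and none of 20 of TGF-beta and BMP signalling passed (limma, 3 and 1 lower at an unadjusted p under 0.05), and 19 of 20 in each list were lower (medians -0.13 and -0.16), against 8046 of all 12823 genes. Egln3, a prolyl hydroxylase induced by hypoxia, differed by -0.54 (SE 0.19, adjusted p = 0.624), with every ZT20 mouse below every ZT8 mouse. Under cyclic loess the medians of the Wnt, glycolysis and TGF-beta lists were -0.07, -0.10 and -0.12.

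Of 17 genes of the stressed keratinocyte and inflammation list, none passed (limma, 3 lower at an unadjusted p under 0.05). Cxcl1, a neutrophil attractant, read 6.56, 7.27, 7.06 and 7.63 at ZT8 and 6.62, 6.49, 6.19 and 6.46 at ZT20, a difference of -0.69 (SE 0.28, adjusted p = 0.83). H2-Eb1, an MHC class II chain, read 7.06, 7.90, 8.24 and 7.38 at ZT8 and 6.79, 7.04, 6.66 and 7.09 at ZT20, a difference of -0.75 (SE 0.28, adjusted p = 0.73). The Langerhans and myeloid marker list averaged 5.36 to 5.78 at ZT8 and 5.30 to 5.38 at ZT20. Of 9 tested markers 8 were lower at ZT20, against 8046 of all 12823 genes, among them the bright Epcam (10.32). Cd207, Lyz2, Adgre1 and Ptprc were under the dim limit. Of these, Lyz2 (3.23 to 3.42) and Adgre1 (3.43 to 3.66) read higher at ZT20, and Cd207 and Ptprc lower. The part of Langerhans and myeloid cells in the result was not tested.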
